A study of Mus musculus with 15 samples.

Results

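Meis1, Meis2, Meis3, Pbx2, Pbx3 and Pknox1 encode homeodomain proteins of the TALE class that act as cofactors of Hox proteins, and their RNA was followed here in mouse embryonic stem (ES) cells. The 6 genes were taken by their names in the array design, and for each the probe with the highest mean signal was used. All 6 were among the 25090 genes tested, and all were well above background on each of the 15 arrays.

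TALE homeodomains carry an extra loop of amino acids between their first and second helices, which gives the class its name. Pbx proteins bind DNA together with Hox proteins and sharpen their choice of site, while Meis and Pknox proteins (Pknox is also called Prep) pair with Pbx, help to keep it in the nucleus and can join it and a Hox protein on one enhancer. In the early embryo Meis genes respond to retinoic acid, and Meis-Pbx-Hox complexes act in the hindbrain, where Hox genes are switched on in order. In ES cells many such developmental genes are held low by PRC2, the Polycomb complex that places methyl groups on histone H3 at lysine 27.

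Total RNA of 15 samples of mouse ES cells was hybridised, 1 sample to each 1-colour Agilent array. The groups were cells with the short hairpin RNA sh4 after 72 hours in 1 µM retinoic acid ("sh4 72 RA", 3 arrays), cells with the control hairpin shCTR after the same treatment ("shCTR 72 RA", 4 arrays), untreated sh4 cells (4 arrays) and untreated shCTR cells (4 arrays). All 4 groups carry a hairpin. The labels leave the target of sh4 unnamed. The title of the series speaks of Phf19, which encodes a subunit that joins PRC2 as an accessory. They give no culture time for untreated cells, so that retinoic acid cannot be told apart from 72 hours of culture. They call the samples biological replicates without saying that the cultures were separate, so p-values measure the spread between these samples, which may be technical. The labels do not say whether a hairpin line was 1 clone or a pool. In bulk RNA, more cells that express a gene and more RNA per cell cannot be told apart.

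The arrays lay on 4 slides, with no sh4 72 RA array on slide 4. The share of probes well above background ran from 73.8% to 79.4%, and no spot was saturated. For 3 arrays the scanning software asked for evaluation, namely sh4 72 RA replicate 1, untreated sh4 replicate 3 and untreated shCTR replicate 2. Phf19 itself was lower on every sh4 array than on every shCTR array of the same treatment: on its 1 probe sh4 cells held 0.544 of the shCTR level in retinoic acid and 0.302 of it untreated. Treated cells held 0.403 of the untreated Phf19 level in sh4 and 0.224 of it in shCTR. Phf19 signal was thus lower in shCTR 72 RA (0.127 of the array's 75th percentile) than in untreated sh4 (0.171). All 10 ES cell markers (Pou5f1, Nanog and others) were well above background on all 15 arrays, and their summed signal was 363 to 394 in untreated sh4 cells and 381 to 468 in untreated shCTR cells, in multiples of the array's 75th percentile. The number of arrays limits the precision.

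A level below is the log2 of the signal relative to the 75th percentile of its own array, and a change is a difference of mean levels (log2 fold change ± standard error). The words "rose", "fell" and "changed" are kept for genes whose adjusted p from limma, over all 25090 genes, was under 0.05. Retinoic acid raised Meis1, Meis2, Meis3, Pbx2 and Pbx3 in both lines. The hairpin sh4 raised Meis2 and Pbx3 under both treatments, Meis1 in untreated cells and Pbx2 in retinoic acid, while Pknox1 fell with sh4 in untreated cells. In retinoic acid 3 of the 6 genes passed between sh4 and shCTR, all 3 higher in sh4, where 21.2% of all genes passed (10.9% up, 10.3% down). The arrays of the hairpins did not overlap for 5 of 6, against 32.4% of all genes. In untreated cells 4 of 6 passed between the hairpins (3 rose, 1 fell), against 28.6% of all genes (14.4% up, 14.1% down). Here the arrays did not overlap for 4 of 6, against 28.3% of all genes. Between retinoic acid and untreated cells 5 of 6 passed in sh4 (all rose) and 6 of 6 in shCTR (5 rose, 1 fell), where 58.7% of all genes passed in sh4 (27.1% up, 31.6% down) and 62.4% in shCTR (29.0% up, 33.5% down). The treated and untreated arrays did not overlap for 5 of 6 genes in each line, against 57.9% of all genes in sh4 and 59.9% in shCTR. The median change of the 6 genes was 0.32 for sh4 in retinoic acid and 0.43 in untreated cells, against 0.036 and 0.017 over all genes. For retinoic acid it was 1.77 in sh4 and 1.75 in shCTR, against −0.124 and −0.122.

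**Figure D1:**
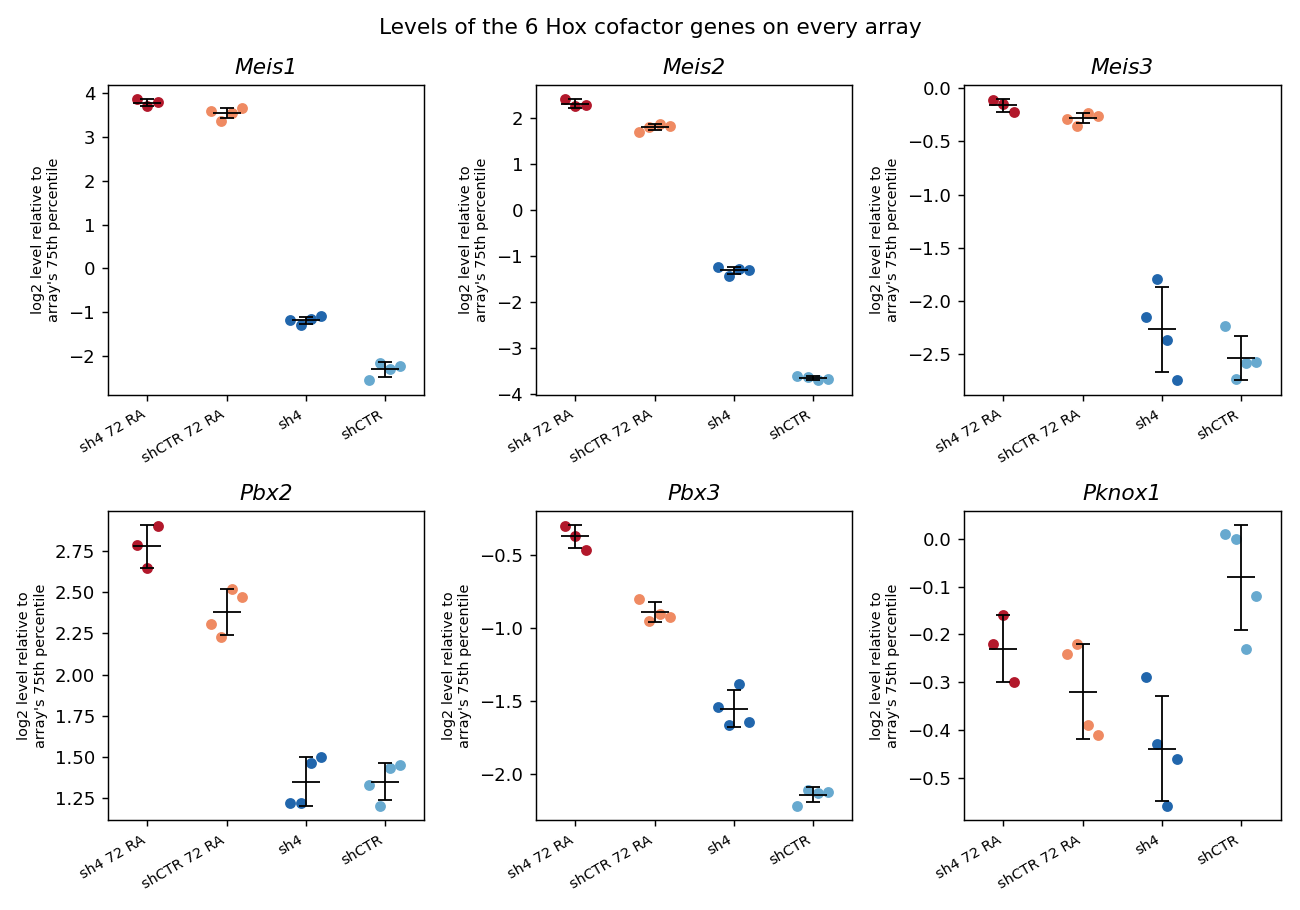
Log2 level (relative to the 75th percentile of the array) of each of the 6 genes on every array, by group, with the group mean and SD as black bars and n = 3, 4, 4 and 4 from left to right. Meis1, Meis2, Meis3, Pbx2 and Pbx3 were higher on all 7 treated arrays than on all 8 untreated ones, and Pknox1 spanned only −0.56 to 0.01. The vertical axes differ between panels.

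Meis1, which encodes a partner of Pbx and Hox proteins in blood stem cells, limb and hindbrain, had the largest change of the 6 with retinoic acid. Its level was 3.85, 3.69 and 3.80 in sh4 72 RA and 3.59, 3.37, 3.54 and 3.65 in shCTR 72 RA. In untreated cells it was −1.17, −1.29, −1.16 and −1.09 with sh4 and −2.55, −2.16, −2.30 and −2.21 with shCTR. No 2 of the 4 groups overlapped. Retinoic acid raised Meis1 31.1-fold in sh4 (4.96 ± 0.10, limma adjusted p = 2.3e-13) and 57.3-fold in shCTR (5.84 ± 0.09, adjusted p = 1.4e-14), which placed it 113 and 98 from the top of all genes. In retinoic acid the hairpins differed by 0.24 ± 0.10 with a 95% interval of 0.03 to 0.46, and this did not pass (adjusted p = 0.10), although every sh4 array was above every shCTR array and the 3 slides gave 0.26 to 0.32. With the slide as a block the adjusted p was 0.054, and without untreated shCTR replicate 1 it was 0.047. In untreated cells sh4 raised Meis1 2.18-fold (1.13 ± 0.09, adjusted p = 5.6e-07), by 0.87 to 1.38 within the 4 slides. The probe lies at chr11:18780695-18780754 on the minus strand of mm9.

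Meis2, a relative of Meis1 known for roles in limb, lens and forebrain, had the largest change of the 6 with sh4 in untreated cells. It stood at 2.41, 2.25 and 2.27 in sh4 72 RA and at 1.70, 1.80, 1.87 and 1.83 in shCTR 72 RA. Untreated sh4 cells gave −1.24, −1.43, −1.27 and −1.30, and untreated shCTR cells −3.60, −3.62, −3.70 and −3.66. The groups again did not overlap, and untreated shCTR arrays lay within 0.10 of one another. The hairpin sh4 raised Meis2 1.42-fold in retinoic acid (0.51 ± 0.07, adjusted p = 0.00011, within slides 0.40 to 0.71). In untreated cells it raised Meis2 5.04-fold (2.33 ± 0.06, adjusted p = 3.1e-11, within slides 2.19 to 2.42). Retinoic acid raised Meis2 12.3-fold in sh4 (3.62 ± 0.07, adjusted p = 1.3e-13) and 43.6-fold in shCTR (5.45 ± 0.06, adjusted p = 1.3e-15). Another background correction was normexp on the mean spot signal, with an offset of 50. It gave 4.81 for retinoic acid in shCTR and 1.79 for sh4 in untreated cells. The probe lies at chr2:115689641-115689700 on the minus strand of mm9.

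The promoters of Meis1 and Meis2 are shown because these are the genes that changed most with retinoic acid and with sh4 in untreated cells. They are the 250 bases before and the 50 bases after the start site in the RefSeq table for GRCm38.p6, read 5′ to 3′ along the gene, with CG dinucleotides in capitals. The Meis1 window is chr11:19018920-19019219 and the Meis2 window chr2:116064570-116064869, both on the minus strand.
Meis1: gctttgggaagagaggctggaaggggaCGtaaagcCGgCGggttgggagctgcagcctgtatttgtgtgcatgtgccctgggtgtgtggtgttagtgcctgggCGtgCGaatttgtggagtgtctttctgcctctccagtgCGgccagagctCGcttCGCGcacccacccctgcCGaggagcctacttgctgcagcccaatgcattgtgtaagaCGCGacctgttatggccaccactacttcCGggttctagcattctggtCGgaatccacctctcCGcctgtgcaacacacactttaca
Meis2: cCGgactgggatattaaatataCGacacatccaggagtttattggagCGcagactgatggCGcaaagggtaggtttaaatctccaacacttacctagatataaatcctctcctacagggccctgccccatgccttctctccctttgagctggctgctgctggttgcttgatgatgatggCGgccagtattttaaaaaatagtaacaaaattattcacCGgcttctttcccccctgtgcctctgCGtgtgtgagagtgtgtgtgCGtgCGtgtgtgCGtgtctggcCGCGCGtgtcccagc
They hold 15 and 13 CG dinucleotides, more than 65.4% and 62.1% of the 32851 promoters in that table, whose median is 7. The table also held Meis3 and Pbx2, with 21 and 29 CG dinucleotides, more than 75.2% and 87.1% of promoters. Pbx3 and Pknox1 had no match by name. GC content was 58.3% for Meis1, 51.0% for Meis2, 66.7% for Meis3 and 76.0% for Pbx2, against a median of 52.7%. Both strands of the 4 windows were searched for TGACAG (bound by Meis and Pknox proteins), TGATTG (bound by Pbx), TGATNNAT (a joint site of Pbx and Hox), the joint site of Pbx and Meis (TGATTG and TGACAG merged at their shared TG) and the retinoic acid response elements with repeats spaced by 5 or 2 bases. None of these letters was found in the 4 windows. The shares of all these promoters that hold them are 19.2% for TGACAG, 14% for TGATTG, 8.85% for TGATNNAT and 0.222% for the joint site of Pbx and Meis. For the response elements spaced by 5 and by 2 they are 0.0974% and 0.268%.

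Meis3, the least studied of the Meis genes, rose with retinoic acid and did not pass for the hairpin. Its levels were −0.11, −0.15 and −0.22 in sh4 72 RA, −0.29, −0.35, −0.23 and −0.26 in shCTR 72 RA, −2.15, −1.79, −2.37 and −2.75 in untreated sh4 and −2.24, −2.74, −2.59 and −2.58 in untreated shCTR. Treated and untreated arrays were far apart, and the untreated groups overlapped. Retinoic acid raised Meis3 4.31-fold in sh4 (2.11 ± 0.18, adjusted p = 1.8e-07) and 4.77-fold in shCTR (2.25 ± 0.16, adjusted p = 3.2e-08). The change with sh4 was 0.12 ± 0.18 in retinoic acid (adjusted p = 0.75) and 0.27 ± 0.16 in untreated cells (adjusted p = 0.28), with 95% intervals of −0.26 to 0.51 and −0.08 to 0.63. Without untreated sh4 replicate 4, the lowest untreated array, the second was 0.43 with an adjusted p of 0.032. The 3 probes of Meis3 lie on the plus strand of mm9 chromosome 7, the one used at chr7:16771729-16771788 and the others at chr7:16771439-16771498 and chr7:16764370-16764429. All 3 rose with retinoic acid, by different amounts: the others gave 1.32 ± 0.23 and 2.92 ± 0.23 in sh4 (adjusted p = 0.00018 and 1.1e-07) and 1.40 ± 0.21 and 3.09 ± 0.22 in shCTR (adjusted p = 4.9e-05 and 2.2e-08). Neither passed between the hairpins.

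**Figure D2:**
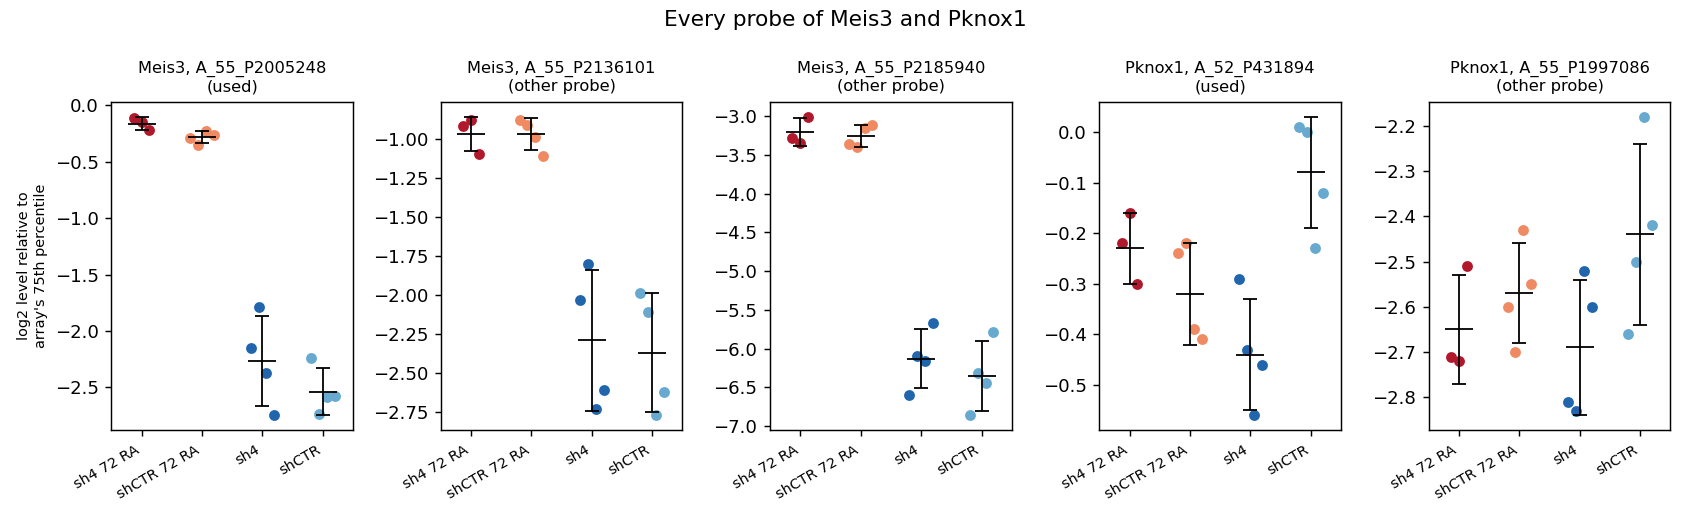
Log2 level (relative to the 75th percentile of the array) for each of the 3 probes of Meis3 and the 2 probes of Pknox1, by group, with the group mean and SD as black bars. All 3 Meis3 probes were higher on every treated array than on every untreated one, whereas the groups of the other Pknox1 probe overlapped. The vertical axes differ, and levels are not compared between probes.

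Pbx2, one of the Pbx genes expressed in most tissues, rose with retinoic acid and rose with sh4 in treated cells. Its levels were 2.79, 2.65 and 2.90 in sh4 72 RA and 2.31, 2.23, 2.52 and 2.47 in shCTR 72 RA, with no overlap. Untreated cells gave 1.22, 1.22, 1.46 and 1.50 with sh4 and 1.33, 1.20, 1.43 and 1.45 with shCTR, which lay in the same range. Retinoic acid raised Pbx2 2.70-fold in sh4 (1.43 ± 0.10, adjusted p = 4.3e-08) and 2.04-fold in shCTR (1.03 ± 0.10, adjusted p = 4.6e-07). In retinoic acid sh4 raised Pbx2 1.32-fold (0.40 ± 0.10, adjusted p = 0.014, within slides 0.38 to 0.48). That call was lost without sh4 72 RA replicate 4 (0.34, adjusted p = 0.069) and without the 3 arrays rated as needing evaluation (0.40, adjusted p = 0.051). In untreated cells the hairpins differed by 0.00 ± 0.10 (adjusted p = 0.99), with a 95% interval of −0.21 to 0.21. The probe lies at chr17:34733355-34733414 on the plus strand of mm9.

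Pbx3, a Pbx gene with known roles in breathing circuits and in leukaemia, rose in all 4 comparisons. It stood at −0.30, −0.37 and −0.46 in sh4 72 RA, at −0.80, −0.95, −0.90 and −0.92 in shCTR 72 RA, at −1.54, −1.66, −1.38 and −1.64 in untreated sh4 and at −2.22, −2.11, −2.13 and −2.12 in untreated shCTR. The groups formed 4 steps without overlap. The hairpin sh4 raised Pbx3 1.43-fold in retinoic acid (0.52 ± 0.08, adjusted p = 0.00024, within slides 0.44 to 0.59) and 1.50-fold in untreated cells (0.59 ± 0.07, adjusted p = 2.2e-05, within slides 0.45 to 0.75). Retinoic acid raised it 2.27-fold in sh4 (1.18 ± 0.08, adjusted p = 1.1e-08) and 2.38-fold in shCTR (1.25 ± 0.07, adjusted p = 2.2e-09). The probe lies at chr2:34027481-34027540 on the minus strand of mm9.

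Pknox1, whose protein competes with Meis proteins for Pbx and is needed by the early epiblast, had the smallest changes with retinoic acid. Its levels were −0.22, −0.16 and −0.30 in sh4 72 RA, −0.24, −0.22, −0.39 and −0.41 in shCTR 72 RA, −0.29, −0.43, −0.56 and −0.46 in untreated sh4 and 0.01, 0.00, −0.23 and −0.12 in untreated shCTR. Untreated sh4 lay below untreated shCTR on every array, and the other groups overlapped. In retinoic acid the hairpins differed by 0.09 ± 0.08 (adjusted p = 0.58). In untreated cells sh4 lowered Pknox1 to 0.783 of the shCTR level (−0.35 ± 0.08, adjusted p = 0.0038, within slides −0.43 to −0.30). Its second probe gave −0.25 ± 0.11 for this (adjusted p = 0.11), and without the 3 arrays rated as needing evaluation the value was −0.28 (adjusted p = 0.051). In sh4, retinoic acid gave a difference of 0.21 ± 0.08 (adjusted p = 0.051), and 0.19 with the slide as a block (adjusted p = 0.0089). Retinoic acid lowered Pknox1 in shCTR (−0.23 ± 0.08, adjusted p = 0.019, within slides −0.29 to −0.16), a call lost on the second probe (−0.13), without any one of 4 arrays (shCTR 72 RA replicates 3 and 4, untreated shCTR replicates 1 and 2, −0.21 to −0.20), with normexp (−0.22) and without the arrays rated as needing evaluation (−0.21). The probe used lies at chr17:31744266-31744325 and the second at chr17:31742878-31742937, both on the plus strand of mm9.

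**Figure D3:**
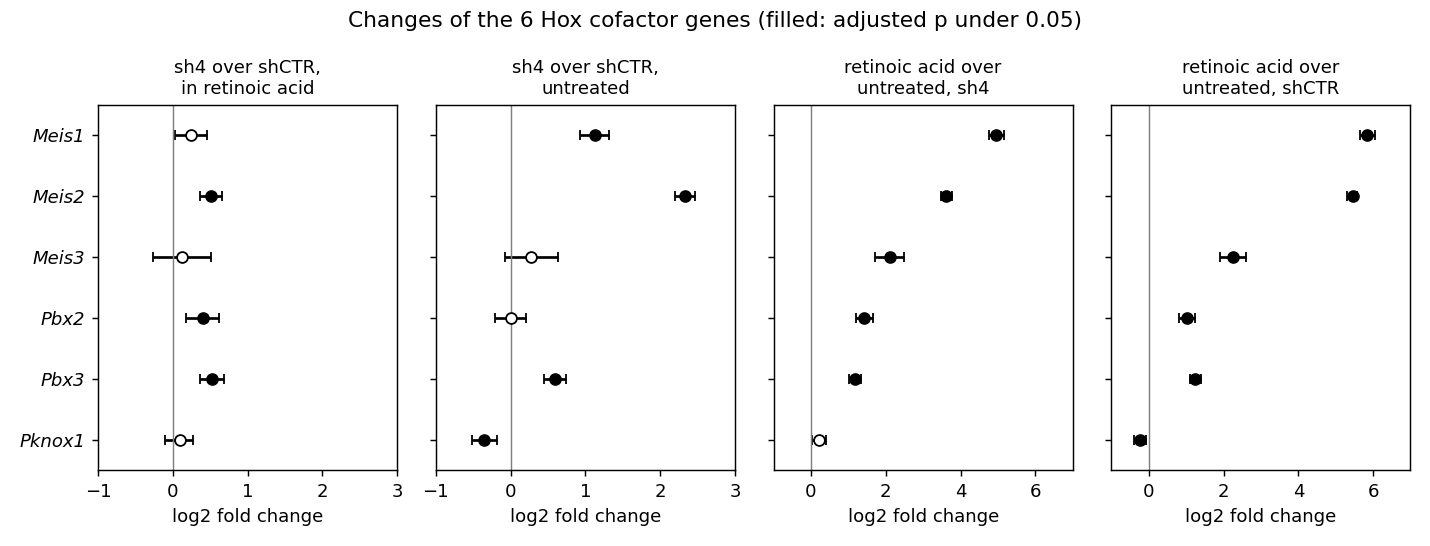
Log2 fold change of each gene in 4 comparisons (points, with 95% intervals from limma), filled where the adjusted p was under 0.05. Meis1 (5.84) and Meis2 (5.45) changed most with retinoic acid in shCTR and Meis2 (2.33) most with sh4 in untreated cells. The horizontal scale of the 2 left panels is finer than that of the 2 right panels.

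The effect of sh4 in retinoic acid minus its effect in untreated cells was tested as an interaction, which is also the difference between the lines in their response to retinoic acid. It passed for 3 of the 6 genes, where 20.5% of all genes passed (10.2% up and 10.2% down). For Meis2 it was −1.82 ± 0.09 (adjusted p = 2.8e-08), so that the fold change with sh4 was smaller in retinoic acid than without it. Within the 3 slides that hold all groups it was −1.64, −1.74 and −2.03, and −1.25 under both the normexp correction and the deposited log2 table. For Meis1 it was −0.88 ± 0.13 (adjusted p = 0.00036, within slides −1.11, −0.55 and −0.88). For Pknox1 the interaction was 0.44 ± 0.12 (adjusted p = 0.016, within slides 0.33, 0.49 and 0.42). The second Pknox1 probe gave 0.17 ± 0.16 (adjusted p = 0.57 over all probes), and without the arrays rated as needing evaluation the value was 0.37 (adjusted p = 0.10). Phf19 itself had an interaction of 0.85 ± 0.13 (limma adjusted p = 0.00036), its fold difference between the hairpins being smaller in retinoic acid. Whether this has a part in the values of the 6 genes was not tested.

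For Pbx2 the interaction was 0.40 ± 0.14 (adjusted p = 0.065). The slides gave 0.59, 0.41 and 0.35, and the slide block gave 0.44 with an adjusted p of 0.00069. It also passed without untreated sh4 replicate 4 (0.45, adjusted p = 0.048) and without untreated shCTR replicate 2 (0.45, adjusted p = 0.045). For Pbx3 the interaction was −0.07 ± 0.10 (adjusted p = 0.77, 95% interval −0.29 to 0.15) and for Meis3 −0.15 ± 0.24 (adjusted p = 0.80, 95% interval −0.67 to 0.37). For these last genes an effect of sh4 that differs between treatments was not detected.

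**Figure D4:**
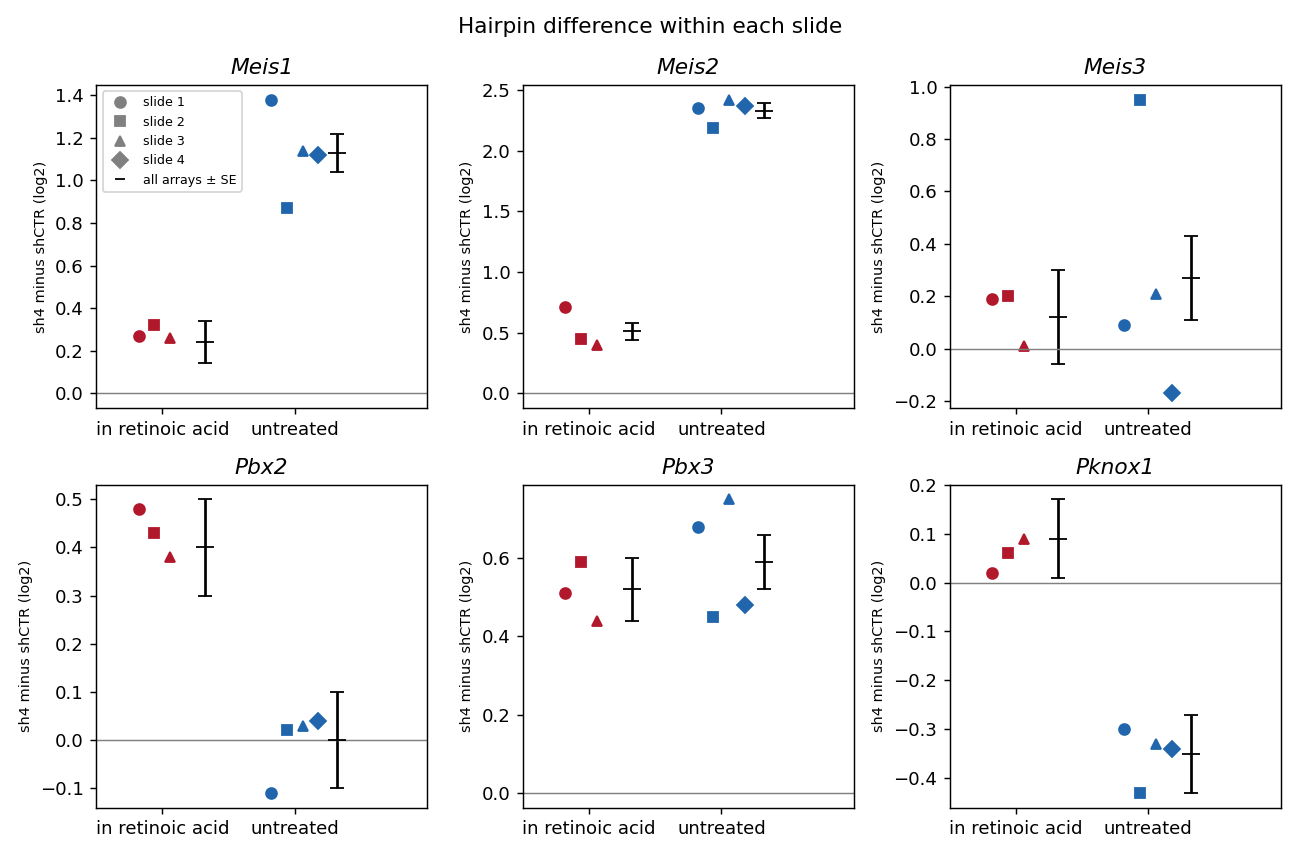
Difference between the sh4 and the shCTR array of the same slide (log2), in retinoic acid (3 slides) and untreated (4 slides), with the mean difference over all arrays and its standard error in black. Meis1 and Meis2 had smaller differences in retinoic acid on each of the 3 slides, and Pbx2 a larger one. The vertical axes differ between panels.

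Ordered by level, Meis1, Meis2, Meis3 and Pbx3 all ran from sh4 72 RA at the top through shCTR 72 RA and untreated sh4 to untreated shCTR. For Meis2 and Pbx3 each neighbouring pair in that order differed at an adjusted p under 0.05, for Meis1 all but the 2 treated groups did, and for Meis3 only shCTR 72 RA and untreated sh4 did (1.98 ± 0.16, adjusted p = 1.3e-07). The step from shCTR 72 RA down to untreated sh4 was 4.71 ± 0.09 for Meis1, 3.11 ± 0.06 for Meis2 and 0.66 ± 0.07 for Pbx3. Pbx2 had the treated groups at the top in the same order and the untreated groups level. For Pknox1 no 2 neighbours differed in the main fit (adjusted p = 0.16, 0.58 and 0.21). With the slide as a block in limma, sh4 72 RA lay below untreated shCTR (−0.16, adjusted p = 0.02). In that fit shCTR 72 RA also lay above untreated sh4 (0.12, adjusted p = 0.048), and the treated groups did not differ (adjusted p = 0.37).

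Over the 15 arrays the levels of Meis1, Meis2, Meis3, Pbx2 and Pbx3 correlated with one another at r of 0.91 to 0.98, and Pknox1 with them at −0.33 to −0.10. The treated and the untreated arrays form 2 clusters, so r over all arrays mostly measures this split. By r over all 15 arrays the genes most like Meis1 were Yaf2 (0.999), Gyg (0.999) and Stmn4 (0.998), and those most like Meis2 were Fam149a (0.999), Podxl (0.998) and Sema6a (0.998). For Meis3 they were Slc25a21 (0.992), Asgr1 (0.991) and Hspa12b (0.990), for Pbx2 Mmp2 (0.995), Epb41l5 (0.993) and Myh7 (0.993), and for Pbx3 Tmem123 (0.993), St7 (0.993) and Stxbp6 (0.992). For Pknox1 the closest were Hspa12a (0.912), E030011O05Rik (0.911) and Celf6 (0.906).

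Counts in this and the following lists stand beside these shares of all genes. With sh4, 10.9% rose and 10.3% fell in retinoic acid, and 14.4% rose and 14.1% fell untreated. With retinoic acid 27.1% rose and 31.6% fell in sh4, and 29.0% rose and 33.5% fell in shCTR. The interaction passed upward for 10.2% and downward for 10.2%. No list was tested as a set. Of 12 other TALE homeobox genes (among them Pbx4, Pknox2, Mkx and the Irx and Tgif genes), 5 rose with sh4 in retinoic acid, led by Irx2 (0.49 ± 0.10, and 0.27 in the mean over its probes) and Irx4 (0.43 ± 0.12, lost without sh4 72 RA replicate 1 or 3). In untreated cells 2 rose with sh4 (Irx3, 0.59 ± 0.10, and Irx1, 0.43 ± 0.10), neither under normexp (0.24 and 0.22), and none fell under either treatment. With retinoic acid 7 rose and 2 fell in sh4, and 5 rose and 3 fell in shCTR. Irx3, an Iroquois gene of the neural tube, rose by 4.93 ± 0.11 in sh4 and 5.68 ± 0.10 in shCTR, and Irx5, not well above background on any untreated array, was at least 6.27-fold higher in sh4 (adjusted p = 9.2e-06) and 5.98-fold in shCTR (4.6e-07). Tgif1, which encodes a repressor that can dampen retinoic acid and TGF-beta signalling, fell (−1.47 ± 0.06 in sh4 and −1.76 ± 0.06 in shCTR), as did Mkx (−0.54 ± 0.11 and −0.64 ± 0.10). The interaction passed for 4: Pknox2 (0.50 ± 0.15), Irx2 (0.41 ± 0.13) and Irx3 (−0.75 ± 0.15) led it, and the calls of Pknox2 and Irx2 were lost without any one of 10 and 13 arrays. The call of Irx3 there was lost under normexp (−0.42). For an "at least" fold, the dim group took, array by array, the weakest signal that counted as well above background, or its own where that was higher. Such a bound holds for the main background correction only. Under normexp the log2 change of Irx5 was 0.49 in sh4 and 0.37 in shCTR, lower than its bounds.

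The Hox genes of groups 1 to 10, whose proteins bind DNA with Pbx or Meis, rose in retinoic acid: 28 of 30 rose in sh4 and 28 of 30 in shCTR, and none fell. Their median change was 5.23 in sh4 (5.07 with dim genes at their bounds) and 4.75 in shCTR. Under normexp 25 rose in each line, with medians of 3.54 in sh4 and 2.74 in shCTR, and in the deposited log2 table the medians were 3.49 and 2.78. Hoxb1, a hindbrain gene with a Pbx and Hox enhancer of its own, was at least 562-fold higher in sh4 (adjusted p = 2.2e-15) and at least 383-fold higher in shCTR (8e-16). Hoxb5 was at least 453-fold higher in sh4 (9.5e-11) and Hoxa5 at least 203-fold higher in shCTR (3.8e-12). These bounds hold for the main background correction only. Under normexp the log2 change of Hoxb1 was 5.74 in sh4 and 5.03 in shCTR. There Hoxb5 gave 5.47 in sh4 and Hoxa5 3.89 in shCTR, which are lower than the bounds. Between the hairpins in retinoic acid 14 rose with sh4 and none fell, with a median of 0.52. With the slide as a block 18 rose, 19 under normexp and 23 in the deposited log2 table, none falling in these, and in the fit of only these groups 20 rose and 1 fell. Hoxd4 (1.20 ± 0.21) and Hoxc5 (0.99 ± 0.30) had the largest called rises, and the call of Hoxc5 was lost without any one of 6 arrays. In untreated cells 7 rose and 6 fell with sh4, with a median of −0.05, and under normexp 1 rose and 6 fell. Hoxb2 (−1.10 ± 0.12) and Hoxc4 (−1.01 ± 0.06) fell there, by less in the deposited log2 table (−0.29 and −0.65). The rises were led by Hoxa2 and Hoxa5, which were not well above background on any untreated array, so that no fold is given. The interaction passed upward for 10 and downward for 3, led by Hoxb2 (1.68 ± 0.17, and 0.84 in the deposited log2 table) and Hoxc4 (1.60 ± 0.09), and under normexp for 18 upward and none downward.

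**Figure D5:**
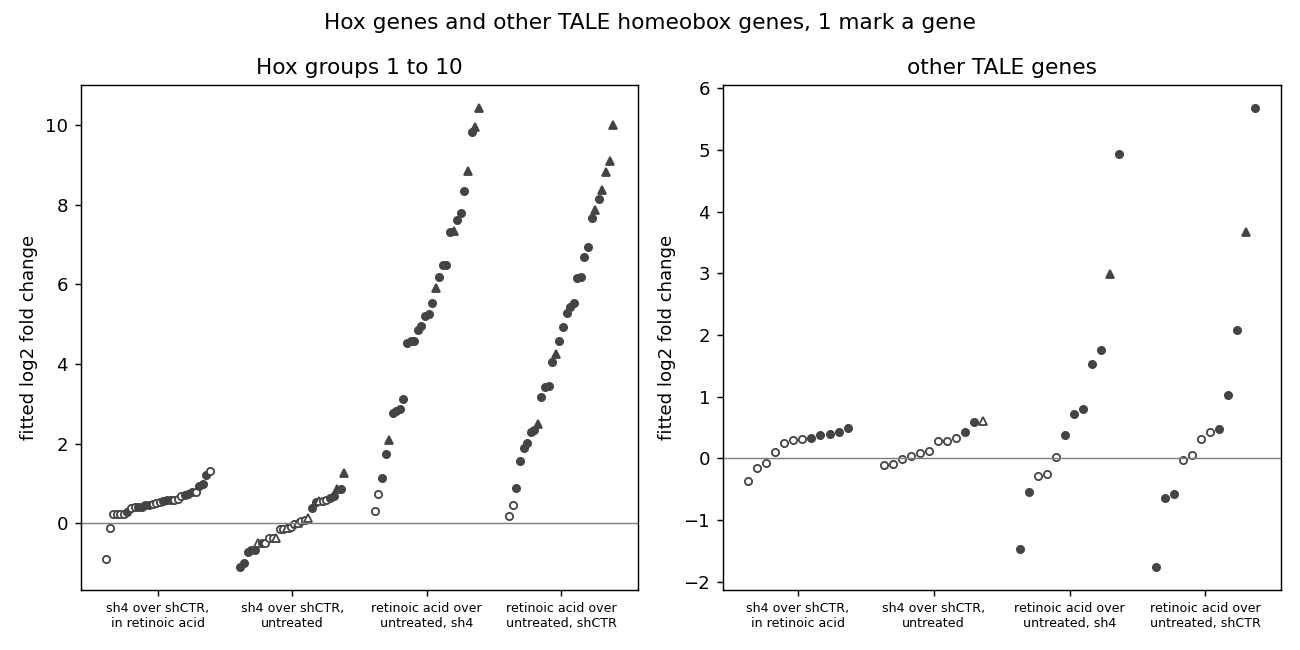
Fitted log2 fold change of each of 30 Hox genes (left) and 12 other TALE genes (right) in 4 comparisons, sorted within each, with filled marks at an adjusted p under 0.05 and triangles for genes not well above background on any array of at least 1 of the groups. Of the Hox genes 28 rose with retinoic acid in each line, and 14 rose with sh4 in retinoic acid. A triangle is a fitted value and no bound.

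Of 15 genes reported as direct targets of Pbx-Meis-Hox complexes, 5 of which are also in the Hox list, 8 rose and 3 fell with retinoic acid in sh4, and 9 rose and 3 fell in shCTR. Beside Hoxb1, Hoxb2 rose by 9.83 ± 0.12 in sh4 and 8.14 ± 0.12 in shCTR (7.28 and 6.33 under normexp). The D-type cyclin gene Ccnd1 fell (−3.18 ± 0.11 in sh4 and −3.63 ± 0.10 in shCTR), and so did Epha8, an ephrin receptor gene, in sh4 (−1.58 ± 0.15) and Ccnd3 in shCTR (−1.05 ± 0.07). With sh4, 6 rose and none fell in retinoic acid, led by Hoxa3 (0.70 ± 0.12) and Ccnd1 (0.62 ± 0.11). In untreated cells 4 rose and 3 fell with sh4: Pax6, which directs eye and forebrain development (1.31 ± 0.13, and 0.64 under normexp), and Epha8 (1.27 ± 0.14) rose most, and Hoxb2 and Hoxb4 (−0.72 ± 0.13, and −0.38 in the deposited log2 table) fell most. Under normexp 2 rose and 3 fell there. The interaction passed for 5 upward and 4 downward, led by Hoxb2, Hoxb4 (1.12 ± 0.19), Egr2 (−1.18 ± 0.11, not passed under normexp) and Epha8 (−1.15 ± 0.21), and under normexp for 6 upward and 1 downward.

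Of 15 direct targets of retinoic acid, some of which are also in the Hox list, 13 rose and 1 fell with retinoic acid in each line. Cyp26b1, which encodes an enzyme that breaks down retinoic acid, rose by 9.66 ± 0.15 in sh4 and 9.91 ± 0.14 in shCTR (7.84 and 7.87 under normexp). Rarg, a retinoic acid receptor gene, fell (−3.17 ± 0.09 and −3.73 ± 0.09). With sh4 in retinoic acid 6 rose and 1 fell: Crabp2, a retinoic acid carrier, rose most (1.04 ± 0.08), and Stra6 fell (−0.99 ± 0.13). In untreated cells 5 rose and 6 fell with sh4, led by Cyp26a1 (1.16 ± 0.12, and 0.48 under normexp), Stra8 (−2.11 ± 0.31) and Cdx1 (−1.02 ± 0.14). The interaction passed for 7 upward and 3 downward, led by Stra8 (2.17 ± 0.46), Cdx1 (1.00 ± 0.20), Cyp26a1 (−1.22 ± 0.17) and Nrip1 (−0.40 ± 0.11). The calls of Cyp26a1 and Nrip1 there were lost under normexp.

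Of 13 genes for binding partners and regulators of Meis and Pbx proteins, 6 rose and 3 fell with retinoic acid in sh4, and 6 rose and 4 fell in shCTR (8 and 2 under quantile normalisation). Crebbp, a histone acetyltransferase gene, rose by 3.38 ± 0.14 in sh4 and 3.11 ± 0.13 in shCTR, and Dlx2 by 2.62 ± 0.14 and 2.16 ± 0.13. The rise of Dlx2 was smaller in sh4 in the deposited log2 table (0.88) and in shCTR under normexp (0.72). Klf4, which also marks ES cells, fell (−2.74 ± 0.08 and −2.73 ± 0.07), as did Ncor1, a corepressor gene (−0.75 ± 0.19 and −0.81 ± 0.18, the first lost without the arrays rated as needing evaluation). With sh4, 3 rose and 2 fell in retinoic acid, and 2 rose and 4 fell in untreated cells. Of all genes 10.9% rose and 10.3% fell with sh4 in retinoic acid, and 14.4% rose and 14.1% fell in untreated cells. Klf4 (−1.06 ± 0.08 and −1.05 ± 0.07) and Crebbp (−0.72 ± 0.14 and −0.98 ± 0.13) fell in both. Pax6 rose in both (0.59 ± 0.14 in retinoic acid, lost under quantile normalisation), and Myh9 rose in untreated cells (0.57 ± 0.06). The interaction passed upward for Crtc1 (0.54 ± 0.13) and downward for Myh9 (−0.74 ± 0.08) and Pax6 (−0.72 ± 0.18), where 20.5% of all genes passed. The calls of Crtc1 and Pax6 were lost under normexp.

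Markers of other cell types moved with the same groups, and their part in the results above was not tested. Summed over a list, in multiples of the 75th percentile of the array, the 10 visceral endoderm markers stood at 9.27 to 10.3 in sh4 72 RA, 27.6 to 31.3 in shCTR 72 RA, 0.733 to 0.839 in untreated sh4 and 1.81 to 1.99 in untreated shCTR. With sh4, 10 of them fell in retinoic acid and 7 in untreated cells, and none rose. Afp and Ttr were not well above background on any untreated sh4 array, nor Ttr on any untreated shCTR array. With retinoic acid 8 rose and 1 fell in sh4, and 10 rose in shCTR.

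The 10 ES cell markers summed to 59.7 to 71.5 in sh4 72 RA and 104 to 114 in shCTR 72 RA, and with retinoic acid 10 fell in sh4 and 8 fell and 1 rose in shCTR. With sh4, 1 rose and 5 fell in retinoic acid, and 1 rose and 1 fell in untreated cells. The 10 neural ectoderm markers summed to 5.55 to 6.79 in sh4 72 RA, 4.60 to 5.23 in shCTR 72 RA, 7.36 to 8.19 in untreated sh4 and 6.80 to 8.18 in untreated shCTR. With sh4, 4 rose and 2 fell under each treatment. Most of the neural sum came from Nes in treated cells (mean level 2.25 in sh4 and 1.72 in shCTR). In untreated cells most came from Otx2 (2.04 and 0.87) and Tubb3 (1.21 and 2.17). The 9 mesoderm markers tested summed to 2.15 to 3.07, 3.18 to 3.83, 1.21 to 2.05 and 1.25 to 1.48 in the same groups, and with sh4 2 fell in retinoic acid and 2 rose and 3 fell in untreated cells. The 9 fibroblast markers tested, genes that feeder cells and other mesenchyme express, summed to 9.25 to 9.49, 7.07 to 8.68, 1.11 to 1.21 and 2.59 to 2.90, and with sh4 1 rose and 1 fell in retinoic acid and 3 rose and 3 fell in untreated cells. The 3 that rose there were Col3a1 (2.11), Dcn (3.01) and Lum (1.35), which were not well above background on any untreated shCTR array. Under normexp none rose and 3 fell, with −0.07 for Col3a1 and 0.09 for Dcn, and 1 rose and 2 fell in the deposited log2 table. Thy1 made up most of the sum in untreated shCTR, and its mean level was −0.65 in untreated sh4 and 1.06 in untreated shCTR (−1.71 ± 0.10). Not well above background on any array of a group were Postn and Dcx in untreated sh4, and Col3a1, Dcn, Lum, Postn, Dcx and Foxf1 in untreated shCTR. With retinoic acid, 3 neural, 5 mesoderm and 8 fibroblast markers rose in sh4 and 4, 5 and 7 in shCTR, and 4, 3 and 1 fell in sh4 and 3, 2 and 1 in shCTR. The interaction passed for 2 visceral endoderm, 1 ES cell, 1 neural, 1 mesoderm and 3 fibroblast markers upward and for 7, 4, 3, 1 and 3 downward. Under normexp it passed for no visceral endoderm marker upward and no fibroblast marker downward.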

How the data were processed

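Each deposited scanner file holds spot intensity values of 1 array, which Feature Extraction 10.7.3.1 had background-subtracted and corrected for a spatial trend, per the file headers, with marks for saturated, uneven or dim spots. A log2 value table by the authors was deposited too, with no account of its making in the labels, and it was matched by normexp correction (offset 50) and quantile normalisation of the mean signal with a median absolute difference of 3.4e-10, so its scale is log2 and its genes are not centred.

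Of 39429 probes, 39312 had an unmarked spot on all arrays. The level was log2 of the processed signal minus the 75th percentile of the array (1509 to 1911 intensity units). A probe was kept if the marks put it well above background on 3 or more arrays of a group, and the kept probe with the highest mean signal stood for its gene name, which left 25090 genes, 5097 of them with several kept probes. Gene names are those of the array design, updated through RefSeq where it held the accession (18583 genes). Probe coordinates are those of the files (mm9). Promoters are from RefSeq (GRCm38.p6), and coordinates of the builds were not mixed.

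Groups were compared with limma 3.58.1 in R 4.3.3 in a single fit with the 4 groups as terms and all 15 arrays, two-sided, with Benjamini-Hochberg adjustment over all genes. The script was tested on simulated data. Alternatives were other background corrections, normalisations, filters and probes, the deposited table, slide or replicate number as a block, each array left out, and the 3 arrays rated as needing evaluation left out.

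The 21 pairs of arrays on 1 slide all deviated together (correlation over 0.1), against 18 of 21 pairs with 1 replicate number, but 15 pairs are in both counts. The 6 pairs that shared only the slide had a median correlation of 0.517, and the 6 that shared only the number 0.0319. The numbers were therefore not taken to pair samples. The main fit has no slide term, and the slide as a block was an alternative. Values within slides stand beside the results.

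The 6 genes and all lists were chosen with earlier results of these data known. The lists are other TALE genes, Hox genes, Pbx-Meis-Hox targets, retinoic acid targets, binding partners and markers of 5 cell types. Named are the 6 genes, the 3 most alike genes of each, and the 2 largest called rises and falls of each list other than markers, per comparison. Some genes of the lists that this rule would name are not reported here.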

Additional observations from a re-analysis of the deposited data

Results flagged for a closer look

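For 3 of the 6 genes the effect of sh4 differed between treated and untreated cells by the interaction test of limma, which is what singled them out. For Meis2 the effect of sh4 in retinoic acid minus that in untreated cells was −1.82 ± 0.09 (adjusted p = 2.8e-08), from 0.51 in retinoic acid and 2.33 in untreated cells. For Meis1 it was −0.88 ± 0.13 (adjusted p = 0.00036), from 0.24 and 1.13. For Pknox1 it was 0.44 ± 0.12 (adjusted p = 0.016), from 0.09 and −0.35, and the second Pknox1 probe gave 0.17 ± 0.16. No array stood far from the others of its group in any of the 18 sets of 4 arrays examined for the 6 genes.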

How the results depend on the processing

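Over the settings that keep or replace whole processing steps, 279 values for the 6 genes kept their direction and their side of the threshold, 6 newly passed, 5 no longer passed and 4 reversed. The reversals concern values near 0 that passed in no setting: the Meis3 interaction under normexp (0.01), Pbx2 with sh4 in untreated cells under normexp (0.01) and in the deposited table (0.01), and the Pbx3 interaction under quantile normalisation (0.00). A further alternative, chosen after seeing the data, used the other probes of Meis3 and Pknox1. The other Pknox1 probe gave −0.08 for sh4 in retinoic acid, the reverse of 0.09 on the probe used, and neither passed. Under normexp 3048 genes passed the interaction (5133 in the main fit), 3392 the hairpin in retinoic acid (5326) and 4639 the hairpin in untreated cells (7164), the cause of which was not tested. The highest counts over the other settings were 6927, 7069 and 9062. Normexp moved the median of all genes by −0.106 for retinoic acid in shCTR and by 0.103 for the interaction. With each array left out in turn, 434 values kept their call, 6 newly passed, 5 no longer passed and 5 reversed, namely Pbx2 with sh4 in untreated cells (−0.05 to 0.04) and the Meis3 interaction (−0.31 to 0.01). In the fit with a replicate block, the Pbx2 interaction (0.36, adjusted p = 0.024) and retinoic acid in sh4 for Pknox1 (0.23, adjusted p = 0.014) newly passed, and no other call on the 6 genes changed. Dim probes limit the untreated values of several Hox genes. The probes used for the 6 genes were well above background on every array. Meis2 was weak in untreated shCTR (119 to 140 intensity units), and the size of its changes depends on the background correction. With sh4 in untreated cells it changed by 2.33 in the main fit and by 1.79 under normexp.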
